A study of Mus musculus with 2 samples.

Results

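CC chemokines are small secreted proteins, named for a pair of adjacent cysteines, that guide white blood cells along a gradient. They act on receptors coupled to G proteins, several ligands share a receptor, and macrophages are among their main producers. Many of their genes lie side by side in clusters and are known to be switched on by NF-κB and AP-1 in activated macrophages. The 10 genes *Ccl2*, *Ccl3*, *Ccl4*, *Ccl5*, *Ccl6*, *Ccl7*, *Ccl9*, *Ccl12*, *Ccl17* and *Ccl22* were examined, out of 20655 mouse genes with a named probe on the array. They were chosen by family and by the log2 differences between the same 2 arrays, which were known, so their values are a description and support nothing beyond these readings. Each gene had 1 named probe, and 9 of the 10 were measured, meaning well above background on both arrays, as were 16885 genes in all.

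The microarray addressed what IR-61, a near-infrared fluorescent small molecule that locates to mitochondria, did to gene expression in macrophages. RAW264.7 is a mouse macrophage line from a tumour induced by Abelson murine leukemia virus in an adult male of the BALB/c strain. One culture of the line received the vehicle and the other received IR-61, at 10 μM by a legend of the study, both for 24 h in DMEM with heat-inactivated fetal bovine serum. RNA of each was read on 1 single-colour Agilent array, 44397 spots per array, and both arrays were read in the same scan. With 1 array per condition there was no replicate error between cultures, and no test was run. The effect of IR-61 and any other difference between the 2 cultures cannot be told apart. In RNA from a whole culture, the share of cells that express a gene and the amount per cell cannot be told apart either.

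The macrophage label was set beside 10 marker genes. All 9 with a named probe were measured on both arrays, and *Cd68* had no named probe. *Csf1r*, the receptor for the growth factor of macrophages, had a signal of 95036 with vehicle and 139210 with IR-61 by its brightest probe, and *Lyz2*, lysozyme, had 19511 and 24217. The dimmest of the 9, *Spi1*, had 1002 and 790. Among markers of other cell types, the stromal *Col1a1* had 27148 and 58670 and the dendritic *Siglech* 49725 and 62195 by its brightest probe. The T cell marker *Cd3e* had 684 and 957, and the B cell marker *Ms4a1* 353 and 180. Signals of different probes are not amounts on 1 scale, so these readings alone do not single out macrophages.

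Signals are in the scanner's arbitrary units. For comparison between arrays, the log2 signal was scaled by subtracting the 75th percentile of the array, 10.30 with vehicle and 10.79 with IR-61, so that 0 is that percentile. Differences are IR-61 minus vehicle on the scaled log2 scale, where 1.0 is 2-fold. Without scaling, the median difference of all measured genes was higher by 0.49 than with it, since the IR-61 array had the higher 75th percentile. The scaled differences of all measured genes had a median of 0.10, quartiles of -0.15 and 0.34 and an SD of 0.44. The error given with a difference is an SD expected from how the repeated spots of a probe vary, which covers noise within an array and not the difference between cultures. On this scale the 9 measured macrophage markers had a median difference of -0.04, or 0.45 without scaling. They ran from *Cd14*, a co-receptor for LPS, at -0.98 to *Adgre1*, which encodes F4/80, at 1.03, with *Spi1* at -0.83 and *Fcgr1* at 0.99. Only *Adgre1* was past 2-fold, by its brightest probe, beside 1.99% of all measured genes that were higher by that much. The other probe of *Adgre1* stood at 0.85. With scaling by the median *Adgre1* was short of 2-fold at 0.94, and *Cd14* was past it at -1.06. *Lyz2* was at -0.18, or 0.31 without scaling, and the 3 probes of *Csf1r* were at 0.06, -0.12 and -0.64.

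Of the 9 measured members, 1 was 2-fold or more higher with IR-61, beside 336 of all 16885 measured genes (1.99%), and 1 was 2-fold or more lower, beside 235 genes (1.39%). The former was *Ccl3* and the latter *Ccl9*, and the other 7 measured members lay between the limits. At 3-fold, 0 members were past the limit in either direction, beside 0.296% of all measured genes higher and 0.379% lower. At 1.5-fold, 2 were higher, *Ccl3* and *Ccl17*, beside 9.79%, and 1 was lower, *Ccl9*, beside 5.69%. The median difference of the 9 was -0.09, with 3 above 0 and 6 below, and without scaling it was 0.40, with 8 above 0. Without scaling 3 of the 9 were 2-fold or more higher and 0 lower, beside 2156 and 72 of all 16885 measured genes. The order from the highest difference was *Ccl3*, *Ccl17*, *Ccl4*, *Ccl5*, *Ccl7*, *Ccl6*, *Ccl2*, *Ccl12* and *Ccl9*. Of the neighbours in that order, *Ccl4* and *Ccl5* differed beyond their expected SD, as did *Ccl12* and *Ccl9*, and the other neighbouring pairs did not.

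**Figure D1:**
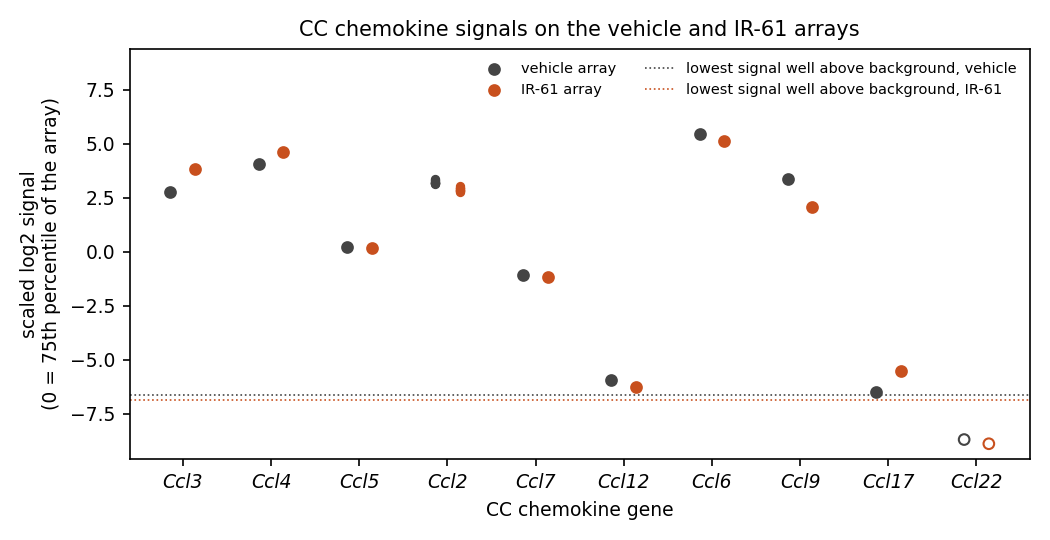
Scaled log2 signal (vertical axis, 0 is the 75th percentile of the array) of 10 CC chemokine genes with vehicle (grey) and with IR-61 (orange). Each point is a spot, with 10 spots per array for *Ccl2* and 1 for the others, open circles are signals not well above background, dotted lines mark the lowest signal well above background on each array, and heights may be compared within a gene only. The points of *Ccl3* go from 2.75 to 3.84 and those of *Ccl9* from 3.36 to 2.09.

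*Ccl3*, *Ccl4* and *Ccl5* encode inflammatory chemokines that attract monocytes, T cells and NK cells, and *Ccl3* and *Ccl5* signal through CCR1. *Ccl3* had a signal of 8508 with vehicle and 25411 with IR-61, 2.75 and 3.84 after scaling. Its difference of 1.09 (expected SD 0.095), or 2.13-fold higher with IR-61, ranked 245 from the highest of 16885. *Ccl4* read 21277 and 43665, 4.07 and 4.62 after scaling. That is a difference of 0.55 (expected SD 0.095), or 1.46-fold higher, at rank 1886. Both genes had the higher reading on the array of the IR-61 culture. *Ccl5* read 1469 and 1980, 0.22 and 0.16 after scaling, for a difference of -0.06 (expected SD 0.095), which is within the noise between spots. Its sign turned without scaling, where the difference was 0.43.

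The differences of these neighbours in function were unequal. That of *Ccl3* exceeded that of *Ccl4* by 0.54 (expected SD 0.134) and that of *Ccl5* by 1.15 (expected SD 0.134), and these gaps do not depend on any constant used to scale an array. *Ccl3* was past 2-fold in 13 of 13 processing settings, with differences from 1.01 to 1.58. *Ccl4* was past it in 1, the setting without scaling, and ranged from 0.47 to 1.04. Averaging probes, no filter on dim probes and a signal of at least 100 could not move *Ccl3* or *Ccl4*, since each had 1 bright probe. The spot of *Ccl3* lay in column 85 of 85, at the edge of the array. The median difference of the 277 spots around it was -0.04 from that of the whole array, and with this local trend removed, a setting added after the position was seen, *Ccl3* stood at 1.14.

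*Ccl2*, *Ccl7* and *Ccl12* encode the monocyte chemoattractants of the mouse that act on CCR2, the receptor by which inflammatory monocytes leave the bone marrow and enter tissue. *Ccl2* had the most precise reading of the family, since its probe was printed 10 times on each array. Its spots read from 11119 to 13184 with vehicle, with a median of 11597, and from 11910 to 14586 with IR-61, with a median of 12887. These unscaled ranges overlapped. After scaling, the spots ran from 3.14 to 3.38 with vehicle and from 2.75 to 3.04 with IR-61, and did not overlap. The spots of an array are repeats of 1 hybridization, not of the culture. The mean scaled signals of 3.23 (SD 0.078, n = 10 spots) and 2.88 (SD 0.085, n = 10 spots) gave a difference of -0.35 (expected SD 0.037), and without scaling the sign turned, at 0.14.

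Relative to the median of all genes, the difference of *Ccl2* was -0.45, a gap that is the same with or without scaling. *Ccl7* read 603 and 793, -1.07 and -1.16 after scaling, for a difference of -0.09 (expected SD 0.231) that became 0.40 without scaling. *Ccl12* was dim, at 20.7 and 22.7, which is 1.62 and 1.51 times the lowest signal well above background on each array. Its difference of -0.36 (expected SD 0.463), or 0.13 without scaling, was smaller than its noise. The differences of *Ccl2* and *Ccl7* were -0.25 apart (expected SD 0.234), so the pair was separated by about the noise between spots. None of the 3 CCR2 ligands reached 2-fold in any setting.

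*Ccl6* and *Ccl9* encode related ligands of CCR1 found in rodents, made by cells of the myeloid lineage, and *Ccl9* is also made by osteoclasts. *Ccl9* had a signal of 12930 with vehicle and 7546 with IR-61, 3.36 and 2.09 after scaling. Its difference of -1.27 (expected SD 0.095), or 2.40-fold lower with IR-61, ranked 127 from the lowest of 16885. *Ccl9* was the member whose raw signal was lower on the brighter IR-61 array, and its difference was -0.78 without scaling, short of 2-fold. In the 12 other settings it was past 2-fold, down to -1.35. Among these, the settings that could not move *Ccl3* could not move *Ccl9* either. *Ccl6* was bright on both arrays, at 55930 and 62656, or 5.47 and 5.14 after scaling. Its difference was -0.32 (expected SD 0.095), and 0.16 without scaling. Neither array had a saturated spot, so these readings were within the scanner's range.

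The difference of *Ccl9* minus that of *Ccl6* was -0.94 (expected SD 0.134). Against *Ccl3*, which shares the receptor CCR1, the gap was 2.36 (expected SD 0.134), the widest between measured members. The CCR1 ligands *Ccl3*, *Ccl5*, *Ccl6* and *Ccl9* therefore held both the highest and the lowest difference among the members.

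*Ccl17* and *Ccl22* encode the ligands of CCR4, a receptor of type 2 helper and regulatory T cells, and are products of dendritic cells and of macrophages activated by IL-4. *Ccl17* read 13.9 and 38.4, -6.51 and -5.53 after scaling. The vehicle signal was 1.08 times the lowest signal well above background. Its difference of 0.98 (expected SD 0.463) was short of 2-fold and ranked 361 from the highest. Without scaling it was 1.47. With normexp background correction of the raw spot and local background signals and an offset of 50, it was 0.006. *Ccl22* read 3.02 and 3.71 and was not well above background on either array, so no fold is given.

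**Figure D2:**
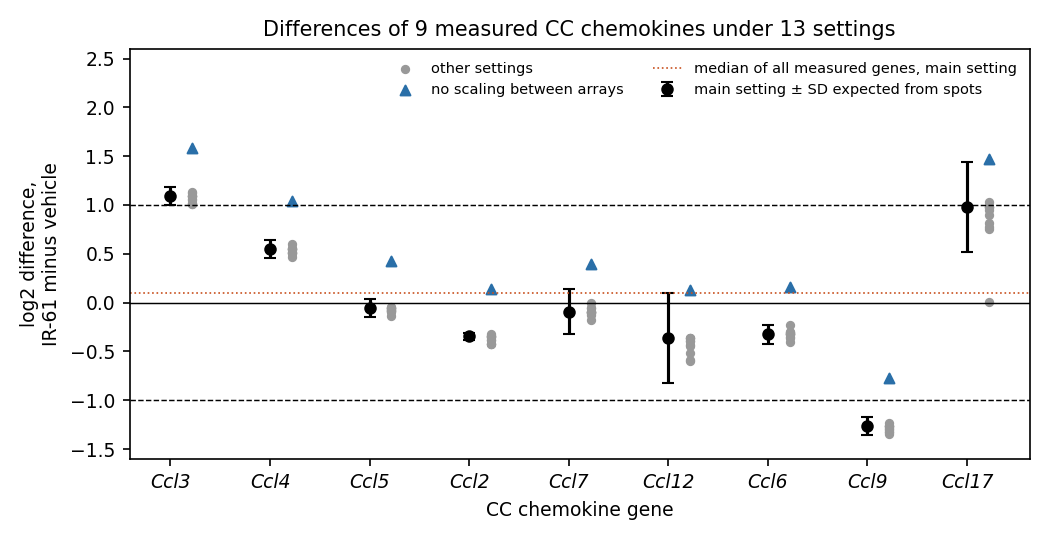
Log2 difference, IR-61 minus vehicle (vertical axis), of the 9 measured CC chemokine genes. Black points are the main setting with their expected SD, grey points 11 other settings (10 for *Ccl12* and *Ccl17*), blue triangles the setting without scaling, dashed lines 2-fold and the dotted line the median of all measured genes. *Ccl3* is at 1.01 or more and *Ccl9* at -0.78 or less in every setting shown, while *Ccl2*, *Ccl5*, *Ccl6*, *Ccl7* and *Ccl12* are above 0 without scaling only.

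In the order of the RefSeq gene table for GRCm38.p6, used here for order only, the members fall into 3 groups of neighbours. *Ccl5*, *Ccl9*, *Ccl6*, *Ccl3* and *Ccl4* follow one another on chromosome 11, and this stretch held the highest and the lowest difference of the members, 1.09 and -1.27. *E230016K23Rik*, a non-coding RNA gene between *Ccl9* and *Ccl6*, had a difference of 0.04 (expected SD 0.381). *Ccl2*, *Ccl7* and *Ccl12* lie together elsewhere on chromosome 11. *Ccl11*, which encodes eotaxin and lies between *Ccl7* and *Ccl12*, had a difference of -0.53 (expected SD 0.463), and *Ccl8*, next to *Ccl12*, had -0.32 (expected SD 0.231), or 0.17 without scaling. Differences in that group, from -0.53 to -0.09, spanned less than those of the first. *Ccl22* and *Ccl17* flank *Cx3cl1* on chromosome 8, which encodes fractalkine and had a difference of 0.41 (expected SD 0.381).

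The 13 other CC ligands gave a background for the members. Of these, 7 were measured, 3 were too dim on both arrays to be well above background and 3 had no named probe. None of the 7 was past 2-fold, and their median difference was 0.26, above 0 in all 13 settings. Without scaling 3 were 2-fold or more higher, beside 2156 of all 16885 measured genes. The highest was *Ccl27a*, a chemokine of skin, at 0.87 by its brightest probe and at 0.22 by the probe that differed most from it, and the lowest was *Ccl24*, an attractant of eosinophils, at -0.66.

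Receptors of the members were also read. Of 15 CC receptor genes, 13 were measured and none was past 2-fold, with a median difference of 0.22 that was -0.01 with normexp. Without scaling 2 were 2-fold or more higher, beside 2156 of all 16885 measured genes. With quantile normalization, cyclic loess and the deposited values 1 was 2-fold or more lower, beside 279, 279 and 281 genes. *Ccr1*, the receptor of *Ccl3*, *Ccl5*, *Ccl6* and *Ccl9*, read 2447 and 4633, a difference of 0.43 (expected SD 0.095). *Ccr2*, the receptor of *Ccl2*, *Ccl7* and *Ccl12*, had a difference of 0.22 (expected SD 0.231), within its noise. *Ccr4*, the receptor of *Ccl17* and *Ccl22*, was dim, at 10.7 with vehicle and 25.9 with IR-61. It was well above background on the IR-61 array only, with a bound of at least 1.44-fold higher there. This bound sets the IR-61 reading against the lowest signal well above background on the vehicle array. On the log2 scale it was 0.53, close to the expected SD of 0.463, so a rise was not separated from the noise between spots. The extremes of the list were *Ccr10* at 0.64, which was -0.07 with normexp, and *Ccr6* at -0.88, down to -1.04 over the settings.

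Of 20 genes that signal behind CC receptors, all measured, none was past 2-fold, from *Rgs18*, a brake on G protein signalling, at 0.998 to *Pik3cg*, a lipid kinase, at -0.92. Their median was -0.07, or 0.41 without scaling. Without scaling 2 were 2-fold or more higher, beside 2156 of all 16885 measured genes. With the local trend removed 1 was so, beside 345.

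Transcription factors known to act on CC chemokine genes, with the inhibitor *Nfkbia*, made a list of 27 genes. All 27 were measured, 0 were 2-fold or more higher, beside 1.99% of all measured genes, and 7 were 2-fold or more lower, beside 1.39%. The count lower was 4 without scaling, 5 with normexp and 6 with the local trend removed, beside 72, 149 and 231 of all genes. The median was -0.27, or 0.22 without scaling. The 7 were *Nfkbia* at -1.95, *Fos* at -1.87, *Relb* at -1.81, *Junb* at -1.71, *Nfkb2* at -1.44, *Fosl2* at -1.05 and *Irf5* at -1.01, and the highest was *Jun* at 0.42. *Ccl9* was past the limit in the same direction as these 7 and *Ccl3* in the opposite one, and whether either depends on them was not tested. Of 11 genes whose products set the stability of chemokine mRNA, all measured, none was past 2-fold. They ran from *Zc3h12a*, which encodes an RNase, at -0.95 to *Rc3h1* at 0.86, whose other probe gave -0.25, with a median of 0.14 that was -0.02 when all probes of a gene were averaged. Without scaling 3 of the 11 were 2-fold or more higher, beside 2156 of all 16885 measured genes. With scaling by the median 1 was 2-fold or more lower, beside 295.

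Among 17 ligands of the CXC, CX3C and XC families, 13 were measured, 1 was 2-fold or more higher, beside 1.99% of all measured genes, and 4 were 2-fold or more lower, beside 1.39%, with a median of -0.24. Without scaling, 4 were higher and 1 lower, beside 2156 and 72 of all 16885 measured genes, and the median was 0.25. With normexp there were 3 lower, beside 149 of 16882 genes. With a signal of at least 100 there were also 3, beside 160 of 12252 genes, and the median was -0.58. The 4 lower with the main scaling were *Cxcl2* at -3.13, *Cxcl1* at -1.40, *Cxcl3* at -1.30 and *Cxcl10* at -1.08, which attract neutrophils or, for *Cxcl10*, activated T cells. *Cxcl5*, another attractant of neutrophils, was at 1.02, just past the limit, and from 0.94 to 1.51 over the settings. The count higher was 0 with the other scalings, with normexp and with the local trend removed. It was 2, beside 294 of all genes, when the probes of a gene were averaged, since those of *Cxcl12* stood at 0.81 and 1.43.

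Because the members on chromosome 11 lie together and had unlike readings, their promoters are shown. Of the 10 members, 6 had an entry in the table of RefSeq promoters for GRCm38.p6, namely *Ccl3*, *Ccl6*, *Ccl9*, *Ccl12*, *Ccl17* and *Ccl22*, and *Ccl2*, *Ccl4*, *Ccl5* and *Ccl7* were not in it. The 250 bases before the start were searched on both strands for 5 motifs. That of NF-κB was GGG and CC with any 5 bases between them, that of AP-1 was TGANTCA, that of C/EBP was TTGCNNAA, that of PU.1 was GAGGAA and that of the box bound by TBP was TATAAA. Of all 32851 promoters of this length, 45.8%, 6.75%, 9.56%, 23.3% and 12.4% held them, in that order. *Ccl3* (chr11:83649379-83649628, minus strand), *Ccl9* (chr11:83578637-83578886, minus strand) and *Ccl6* (chr11:83593088-83593337, minus strand) are printed from 5′ to 3′, as the member with the highest difference, the one with the lowest and the neighbour between them. Capitals mark the matches.
Ccl3 promoter: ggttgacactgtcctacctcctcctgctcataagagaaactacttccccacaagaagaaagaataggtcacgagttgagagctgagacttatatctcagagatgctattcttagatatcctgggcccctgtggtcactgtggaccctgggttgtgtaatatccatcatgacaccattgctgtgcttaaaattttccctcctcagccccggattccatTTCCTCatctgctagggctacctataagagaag
Ccl9 promoter: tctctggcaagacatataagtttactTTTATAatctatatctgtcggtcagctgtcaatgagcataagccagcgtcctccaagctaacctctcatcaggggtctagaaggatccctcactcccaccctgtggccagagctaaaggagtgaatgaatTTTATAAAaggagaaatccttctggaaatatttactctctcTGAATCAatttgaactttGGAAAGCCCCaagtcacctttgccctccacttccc
Ccl6 promoter: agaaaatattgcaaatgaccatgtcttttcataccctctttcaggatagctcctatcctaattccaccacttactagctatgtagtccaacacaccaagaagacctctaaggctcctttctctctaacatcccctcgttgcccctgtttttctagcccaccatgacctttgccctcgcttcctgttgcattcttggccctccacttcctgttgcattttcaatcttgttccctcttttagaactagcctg
The window of *Ccl3* held 1 match, to the PU.1 letters on the opposite strand, 33 to 28 bases before the start. That of *Ccl9* held the NF-κB letters on the opposite strand 35 to 26 bases before the start, the AP-1 letters 53 to 47 bases before it, and 3 matches to the TATA letters. A pair of those TATA matches, at 94 to 89 and at 92 to 87 bases, overlap each other on opposite strands. That of *Ccl6* held none of the 5. Among the remaining promoters, *Ccl22* held 2 matches to the NF-κB letters, *Ccl12* 1 to PU.1 and 1 to TATA, and *Ccl17* 1 to PU.1. A match is a run of letters and not a bound site, and factor binding was not measured.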

How the data were processed

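The authors deposited the intensity of each spot from Agilent Feature Extraction, after background subtraction and detrending within an array, and the raw intensity of spot and local background, with 0/1 flags. Version 11.0.0.1 stands in the submitters' processing notes and 11.0.1.1 in the file headers, which name scanner G2505C and a design on mm9. A deposited table gives the authors' log2 value of each probe, with scale and centring unstated. It holds no ratio, follows log2 of the scanner signals (Pearson r 0.9995 and 0.999 over probes) and has a median of 7.15 in both columns, which also share their quartiles.

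Control spots and 124 and 139 spots with outlier flags were left out on the vehicle and IR-61 arrays. Each probe took the mean log2 signal of its spots, less the 75th percentile of the array. A probe was well above background when most of its spots were flagged so, as were 77.6% of 39419 probes with vehicle and 81.2% with IR-61. Accessions without versions named 27224 probes through the RefSeq gene table, and 5473 genes had several. A gene took its brightest unsaturated probe. Of the genes, 16885 were measured, 740 and 145 had a bound higher or lower with IR-61, 2844 were below on both arrays and 41 had no usable fold.

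The spread between spots was a probe's own SD where it had at least 5 spots. Otherwise it was the pooled SD of the probes printed 10 times that were well above background, 329 of 399 with vehicle and 340 with IR-61, in bins of log2 signal under 6, from 6 to 10 and over 10 (0.352, 0.180 and 0.070 with vehicle, 0.300, 0.146 and 0.063 with IR-61). Dividing this spread by the square root of the number of spots gave the error of the mean on each array. The expected SD of a difference is the square root of the sum of the squared errors of the vehicle and IR-61 arrays. The number of arrays limits the precision. All members were named, and of each other list the genes past 2-fold, the highest and the lowest, and genes beside members on the chromosome. 1 receptor gene is not reported here by name. Receptors of the members, further markers, and the members singled out for gaps between them were chosen after their values were seen. The members and lists were chosen with earlier results of these data known. Alternatives were other scalings or none, quantile and cyclic loess normalization, the deposited log2 values, normexp (offset 50), outlier spots kept, probes averaged, no filter or a signal of at least 100, limits of 3-fold and 1.5-fold, and, added later, a local trend (15 rows and 10 columns each side) removed. Scripts were tested on simulated data. Python 3.11.15, numpy 2.4.6, pandas 2.3.3, matplotlib 3.10.9, R 4.3.3 and limma 3.58.1 were used.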

Additional observations from a re-analysis of the deposited data

How the results depend on the processing

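No paired analysis was possible because vehicle and IR-61 shared only 1 replicate number. Without scaling, 3 members were 2-fold or more higher and 0 lower, their median difference was 0.40, and of all genes 2156 were higher and 72 lower, by construction of leaving the brighter array as it was. At a limit of 3-fold, 0 members were higher and 0 lower, with 50 and 64 of all genes. At 1.5-fold, 2 members were higher, with 1653 and 960 of all genes. With the local trend over the array removed, 2 members were 2-fold or more higher, *Ccl3* at 1.14 and *Ccl17* at 1.03, and 1 was lower, beside 345 of all 16885 genes higher and 231 lower. With normexp, 124 of all genes were higher and 149 lower. With no filter on dim probes 921 were higher and 440 lower, over 20655 genes. With a signal of at least 100, 156 were higher and 160 lower, over 12252 genes. The offset of 50 added with normexp pulls the folds of dim probes towards no difference by construction. Its part in these counts was not tested, nor was the cause for the local trend. Of all genes past 2-fold, 58.8% were higher with the main scaling, 45.8% with the median and 52.9% with the 75th percentile of detected probes. The share was 47.9% with quantile normalization, 46.4% with cyclic loess, 48.6% with the deposited values, 45.4% with normexp and 96.8% without scaling. It was 67.7% with no filter on dim probes and 49.4% with a signal of at least 100. With probes averaged it was 55.9%, and with the local trend removed 59.9%. Of the recomputed counts of members and of all genes and medians of the members, 50 were within 1.5 times or the expected SD of the main ones. Another 18 were not. Of recomputed values for single genes and lists, 300 moved beyond these bounds, none of a gene past 2-fold turned sign, and 1772 did not move beyond them. Signal over background limited the values of *Ccl12*, *Ccl17* and *Ccl22*.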

Other observations

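Markers of other cell types were read for the same cultures, and their part in the values of the CC chemokines was not tested. Of 6 B cell markers, all measured, 2 were 2-fold or more lower, beside 1.39% of all measured genes. These were *Ms4a1* at a log2 difference of -1.46 and *Cd79b* at -1.09. The count was 1 with normexp, beside 149 of all genes, and 0 without scaling, beside 72. *Vpreb1* was the highest at 0.52, 3 were above 0, and the median was 0.02, from -1.09 with a signal of at least 100 to 0.51 without scaling, and below 0 in 7 of 13 settings. Of 9 mast cell and granulocyte markers, 7 were measured and 1 was 2-fold or more lower, beside 1.39% of all measured genes. That was *Cpa3*, 2.83-fold lower with IR-61, at signals of 109 and 53.8 (expected SD 0.350). *Mpo* was highest at 0.64, 6 were above 0, and the median was 0.17, or -0.06 with normexp. Without scaling 2 of these markers were 2-fold or more higher, beside 2156 of all genes. *Cpa3* was short of 2-fold with normexp, at -0.95, and was left out with a signal of at least 100. Of 7 dendritic cell markers, which bear on the CCR4 ligands, 5 were measured, none past 2-fold with the main scaling, from *Zbtb46* at -0.58 to *Cd209a* at 0.80, whose other probe was at -0.07. *Xcr1* was not well above background on either array. *Clec9a* was well above background with IR-61 only and dim, at 12.1 and 45.5 (expected SD 0.463). Its bound was at least 2.53-fold higher with IR-61, and 740 genes had a bound higher with IR-61. Of 6 T cell markers, 4 were measured, none past 2-fold, from *Cd3d* at -0.41, or 0.08 without scaling, to *Cd8a* at 0.16, whose other probe was at 0.48. That of *Cd8a* was -0.08 at the lowest over the settings. Of 7 stromal and epithelial markers, 5 were measured, none past 2-fold with the main scaling, from *Krt18* at -0.51 to *Col1a1* at 0.62, which was past 2-fold without scaling, and *Epcam* and *Cdh1* were not well above background with vehicle or with IR-61.

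Beyond the members on chromosome 8, *Ciapin1* was at -0.52 and *Coq9* at -0.56 (expected SD 0.095 for each). *Ccl1*, beside the members on chromosome 11, was not well above background on either array, nor was *Heatr9*, which lies before *Ccl5*.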
